A study of Mus musculus with 12 samples.

Results

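Striatal RNA of mice labelled as cGAS knockouts was compared between carriers and non-carriers of a Huntington's disease knock-in allele. The comparison takes 6 of the 12 libraries of the series, chosen by their titles: 3 cGAS-KO libraries and 3 cGAS-KO;HD libraries, called the double mutants below. Of 55487 genes in the count files, 20178 had at least 10 counts in at least 3 of those 6 libraries and were tested. Both groups carry the cGAS-KO label, and "without cGAS" below refers to that label. The double mutants also carry the zQ175 neo-deleted allele (Q175DN), a long CAG repeat knocked into the endogenous Htt locus, which the series gives as heterozygous for its knock-in mice without stating it again for the double mutants. C57BL/6J controls (WT) and knock-in mice with cGAS (HD), 3 libraries each, entered the fit for its estimate of spread and for a test of whether the effect of the allele differs when cGAS is present. The labels call the 3 mice of a group biological triplicates, and give no age, sex or litter. The comparison asks which striatal transcripts the allele changes when cGAS is missing.

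Huntington's disease is caused by a long polyglutamine stretch in huntingtin, and the medium spiny neurons of the striatum are the cells most affected. These inhibitory projection neurons are split into a direct pathway, which carries dopamine D1 receptors, and an indirect pathway, which carries D2 and adenosine receptors, and both rely on a dense set of cyclic AMP and calcium signalling proteins. In mature neurons, transcription factors of early development are kept silent by Polycomb complexes. cGAS senses DNA in the cytosol and makes the messenger cGAMP, which acts through STING to turn on interferon genes. Interferon genes can also be reached by other sensors, such as the RNA receptors RIG-I and MDA5.

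The 6 libraries held 62241871 to 72765623 counts. In library cGAS-KO replicate 3 the mitochondrial share of counts was 11.5%, where the other 5 had 5.91% to 9.03%, and 16.7% and 20.6% of well-expressed genes differed by more than 1.5-fold between it and the other cGAS-KO libraries, against 3.37% to 5.14% for the other pairs within these 2 groups. It also had the highest summed level of cortical projection neuron markers, 2888 CPM over 26 genes against 900.6 to 1152 in the double mutants and 1390 and 1036 in the other cGAS-KO libraries. CPM are counts scaled to a common library size after TMM, a correction for differences in RNA composition. Counts of Xist, which coats the silenced X chromosome, were high in cGAS-KO replicate 3 with double-mutant replicates 2 and 3 (91447 to 100532 counts), and low elsewhere (35 to 65 counts). Choroid plexus and ependymal markers summed to 698.4 CPM in cGAS-KO replicate 3 and 603.3 in double-mutant replicate 3 against 1652 to 2165 in the other 4. Each result below is therefore given for all 6 libraries and again without cGAS-KO replicate 3 where that changes it.

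Htt, the gene that carries the knock-in allele, measured 178, 178 and 154 CPM in cGAS-KO replicates 1, 2 and 3, the order used throughout, and 126, 137 and 142 CPM in the double mutants. All 3 double-mutant libraries lay below all 3 cGAS-KO libraries. The log2 change was -0.33 ± 0.08 (SE from edgeR's quasi-likelihood fit; Benjamini-Hochberg adjusted p = 0.0295, called the adjusted p from here on). Without cGAS-KO replicate 3 it was -0.41 (adjusted p = 0.00499), but the call was lost without either other cGAS-KO library or any double-mutant library (adjusted p = 0.0522 to 0.129). Cgas stood at 0.875, 0.573 and 0.878 CPM in cGAS-KO and 1.15, 1.15 and 0.797 CPM in the double mutants and was not called (0.41 ± 0.24, adjusted p = 0.4). In the libraries with cGAS it stood at 1.56, 1.36 and 1.33 CPM in WT and 1.14, 1.07 and 1.26 CPM in HD, so the 2 higher double-mutant values lay within the HD range. The labels do not say which part of the gene the deletion removes, so these reads settle neither group's label.

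More genes were lower than higher in the double mutants. At an adjusted p under 0.05, 861 of 20178 genes (4.27%) were called, 312 higher (1.55%) and 549 lower (2.72%) in the double mutants. Of these, 279 changed by more than 2-fold, 91 up and 188 down, while the median log2 change over all genes tested was 0.003. In 859 of the called genes the library values of the 2 groups did not overlap, which was also the case for 22.1% of all genes tested. Leaving out cGAS-KO replicate 3 gave 1155 calls (5.72%), 472 higher and 683 lower. The settings shared 706 genes, all with the same sign, which is 82% of the first set and 61.13% of the second. Leaving out a different library gave 395 calls without cGAS-KO replicate 1, 859 without replicate 2, and 350, 328 and 477 without double-mutant replicates 1, 2 and 3. Leaving out cGAS-KO replicate 3 removes the only high-Xist library of its group. With the Xist class as a covariate 674 genes were called, and 528 when that library was left out as well. Protein-coding genes made up 87.2% of the calls and 76.8% of the genes tested. Of the same 20178 genes DESeq2's Wald test called 658 higher and 1018 lower, and limma voom 1686 and 1736. List counts by these tools below stand beside those numbers. For list counts at an unadjusted p under 0.05 no share over all genes is given, so they describe the list only.

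**Figure D1:**
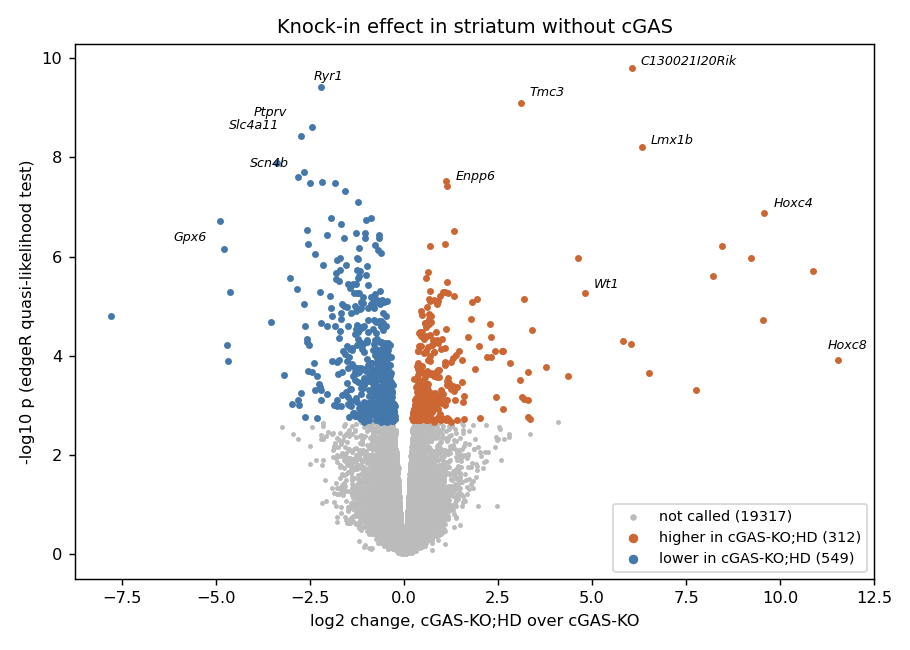
Each point is 1 of the 20178 genes tested, with its log2 change (double mutants over cGAS-KO) on the x axis and -log10 of the unadjusted p of edgeR's quasi-likelihood test on the y axis. The 549 called genes on the left outnumber the 312 on the right, while the points farthest from 0 lie on the right and are led by Hoxc genes.

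Genes shared by both kinds of medium spiny neuron fell together. Of 30 on this list, all tested, 23 fell, 0 rose and 7 were not called, with a median log2 change of -0.98 and single values from -2.66 to -0.46. Every one of the 30 had double-mutant values below all cGAS-KO values, which was also the case for 11% of all genes tested. The list was chosen with earlier results of these data known, so this contrast only describes its members. The summed level of the list was 13040, 10960 and 12040 CPM in cGAS-KO and 5886, 6184 and 6021 CPM in the double mutants, so cGAS-KO replicate 3 lay between its 2 group mates. Without that library 23 fell again, with a median of -0.95, and Wnt7a, a secreted signal, was called there but not with all 6 libraries (adjusted p = 0.0474 and 0.0699), while 1 member lost its call. With the Xist class as a covariate and without that library 12 fell. Leaving out any other library gave 16 to 26 falls. In bulk tissue, fewer cells of a type and less RNA per cell cannot be told apart.

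Ryr1, a calcium release channel of internal stores, measured 48.0, 42.4 and 41.8 CPM in cGAS-KO and 9.06, 9.18 and 10.3 CPM in the double mutants. It had the smallest p of all genes that fell (log2 change -2.21 ± 0.13, adjusted p = 3.91e-06). Scn4b, a sodium channel subunit, went from 684, 573 and 443 CPM to 68.4, 87.6 and 113 CPM. That is a log2 change of -2.66 ± 0.21 (adjusted p = 5.07e-05), and cGAS-KO replicate 3 was the lowest of its group. Rasgrp2, an exchange factor for the small GTPase Rap, had 141, 128 and 116 CPM in cGAS-KO and 49.8, 57.2 and 58.7 in the double mutants (-1.22 ± 0.11, adjusted p = 0.0001). Pde10a, the main striatal phosphodiesterase of cyclic nucleotides, fell from 1006.5, 800.2 and 863 CPM to 261, 288 and 275 CPM (-1.70 ± 0.19, adjusted p = 0.000488). For all 4 genes the spread within either group was smaller than the gap between the groups, most narrowly for Scn4b. Their calls held with any single library left out. Among list members that did not pass were the transcription factors Foxp1 and Bcl11b (adjusted p = 0.055 and 0.0811).

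Markers of the 2 spiny neuron pathways fell on both sides. In the indirect pathway 6 of 11 tested genes fell and 0 rose (median -0.52), and 4 remained called without cGAS-KO replicate 3, where Drd2 and Plxdc1 were lost. Adora2a, the striatal adenosine receptor, measured 154, 120.0 and 125 CPM in cGAS-KO and 34.3, 31.9 and 31.1 CPM in the double mutants (-2.04 ± 0.20, adjusted p = 0.000263). Penk, the enkephalin precursor, measured 715, 588 and 844 CPM and 273, 248.6 and 237 CPM (-1.50 ± 0.22, adjusted p = 0.00328). The receptor Gpr6 (-1.68 ± 0.24) and Upb1, an enzyme of pyrimidine breakdown (-1.63 ± 0.28), fell as well, with adjusted p of 0.00279 and 0.00688. These 4 kept their calls with any library left out. In the direct pathway 3 of 12 fell and 0 rose (median -0.15): Drd1, the dopamine D1 receptor, Chrm4, the muscarinic M4 receptor, and Pdyn, the dynorphin precursor. Drd1 had 185.5, 140.4 and 146 CPM in cGAS-KO and 56.6, 59.8 and 57.9 CPM in the double mutants (-1.44 ± 0.24, adjusted p = 0.00667). Drd1 stayed called in every leave-one-out fit, while Chrm4 (-1.29 ± 0.24) and Pdyn (-0.99 ± 0.19) did not, Chrm4 without cGAS-KO replicate 1 or any double-mutant library (adjusted p = 0.0529 to 0.0626) and Pdyn without cGAS-KO replicate 1 or double-mutant replicates 1 or 2 (0.0641 to 0.0757). Tac1, the substance P precursor, was not called (-0.62 ± 0.22, adjusted p = 0.144), nor was the developmental factor Isl1 (0.25 ± 0.19, adjusted p = 0.562). Whether the 2 pathways differed from each other was not tested.

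Cyclic AMP and G protein signalling lost transcripts at several steps. Of 30 genes, some of them also on the spiny neuron list, 14 fell and 0 rose, with a median of -0.69. Pde1b, a phosphodiesterase driven by calmodulin, measured 811, 688 and 561 CPM in cGAS-KO and 276, 291 and 301 CPM in the double mutants (-1.25 ± 0.15, adjusted p = 0.000721). Rgs4, which shortens G protein signals, had 389, 345 and 526 CPM and 177, 168 and 197 CPM (-1.22 ± 0.14, adjusted p = 0.000488). Without cGAS-KO replicate 3, the highest Rgs4 library, its change was -1.03 (adjusted p = 0.00011). The count of members lower was 15 without cGAS-KO replicate 3, 9 without double-mutant replicate 1 and 10 to 14 without any other library.

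Ion channel genes fell in 11 of 28 cases, with 0 higher and a median of -0.48. Besides Ryr1 and Scn4b, Kcnip2, a partner of A-type potassium channels, measured 195, 159 and 159 CPM in cGAS-KO and 67.7, 70.6 and 81.3 CPM in the double mutants (-1.22 ± 0.19, adjusted p = 0.00398). Cacna2d3, an auxiliary calcium channel subunit, had 156, 141 and 127 CPM and 80.7, 82.6 and 89.8 CPM (-0.74 ± 0.11, adjusted p = 0.00305). The groups did not overlap for either gene, and both stayed called with any library left out. Of the list as a whole, 11 members fell without cGAS-KO replicate 3 and 10 without replicate 2, but 5 or 6 without any of the other 4 libraries.

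Of 30 genes of glutamatergic synapses, which include receptors, scaffolds and vesicular transporters, 6 fell and 0 rose. The median was -0.51, or -0.35 without cGAS-KO replicate 3. Camk2b, a calcium-dependent kinase subunit, measured 869.6, 802 and 903 CPM in cGAS-KO and 529.8, 574 and 573 CPM in the double mutants (-0.62 ± 0.10, adjusted p = 0.00329). Shank3, a scaffold protein, had 263, 301 and 234 CPM and 162, 172 and 191 CPM (-0.61 ± 0.10, adjusted p = 0.00543). Both kept their calls in every leave-one-out fit. The scaffold genes Dlgap3 (-0.60 ± 0.12, adjusted p = 0.0131) and Dlg4 (-0.44 ± 0.10, adjusted p = 0.0272) lost theirs without double-mutant replicates 1 or 2 (adjusted p = 0.0523 to 0.118), and Dlg4 also without cGAS-KO replicate 1 (0.0963). The count of members lower was 13 without cGAS-KO replicate 2, 3 without cGAS-KO replicate 1 or double-mutant replicate 1, 2 without double-mutant replicate 2, and 5 and 4 without cGAS-KO replicate 3 and double-mutant replicate 3. The level of the synaptic list, its mean log2(CPM + 0.5), was 7.85, 7.72 and 8.20 in cGAS-KO and 7.40, 7.50 and 7.46 in the double mutants, highest in cGAS-KO replicate 3, where cortical markers were also highest. Their part in the result was not tested.

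Among 20 GABA receptor and neuropeptide genes 3 fell and 0 rose (median -0.22), and 2 fell without cGAS-KO replicate 3 (median -0.10). Over all genes tested 1.55% were called higher and 2.72% lower. Gabrd, the delta subunit of extrasynaptic GABA receptors, went from 69.7, 68.3 and 50.9 CPM in cGAS-KO to 23.4, 26.7 and 28.2 CPM in the double mutants (-1.27 ± 0.13, adjusted p = 0.000262). Its partner subunit Gabra4 had 153, 161 and 164 CPM and 119.7, 109 and 115 CPM (-0.48 ± 0.07, adjusted p = 0.00248). In mice with cGAS the knock-in change of Gabra4 was -0.05 (adjusted p = 0.761), but the difference between the knock-in effects did not pass the test (adjusted p = 1). The delta opioid receptor Oprd1 (-0.97 ± 0.23, adjusted p = 0.0343) lost its call without any single library except cGAS-KO replicate 2 (adjusted p = 0.0512 to 0.145). Of 20 interneuron markers edgeR called 1 lower, where DESeq2's Wald test called 2 and limma voom 7. It was Pthlh, a peptide of parvalbumin interneurons (-0.98 ± 0.24, adjusted p = 0.0416), which was not called without cGAS-KO replicate 3 (adjusted p = 0.0852). In that setting Chat and Slc18a3, which make and load acetylcholine, were called instead (-0.49 and -0.73, adjusted p = 0.0375 and 0.0345). Pthlh was also not called without cGAS-KO replicate 1 or any double-mutant library (0.0648 to 0.142). No gene on the lists of spiny neurons, signalling, channels, synapses, GABA, interneurons, immediate early genes or the clock was higher at an unadjusted p under 0.05, nor by DESeq2's Wald test or limma voom.

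**Figure D2:**
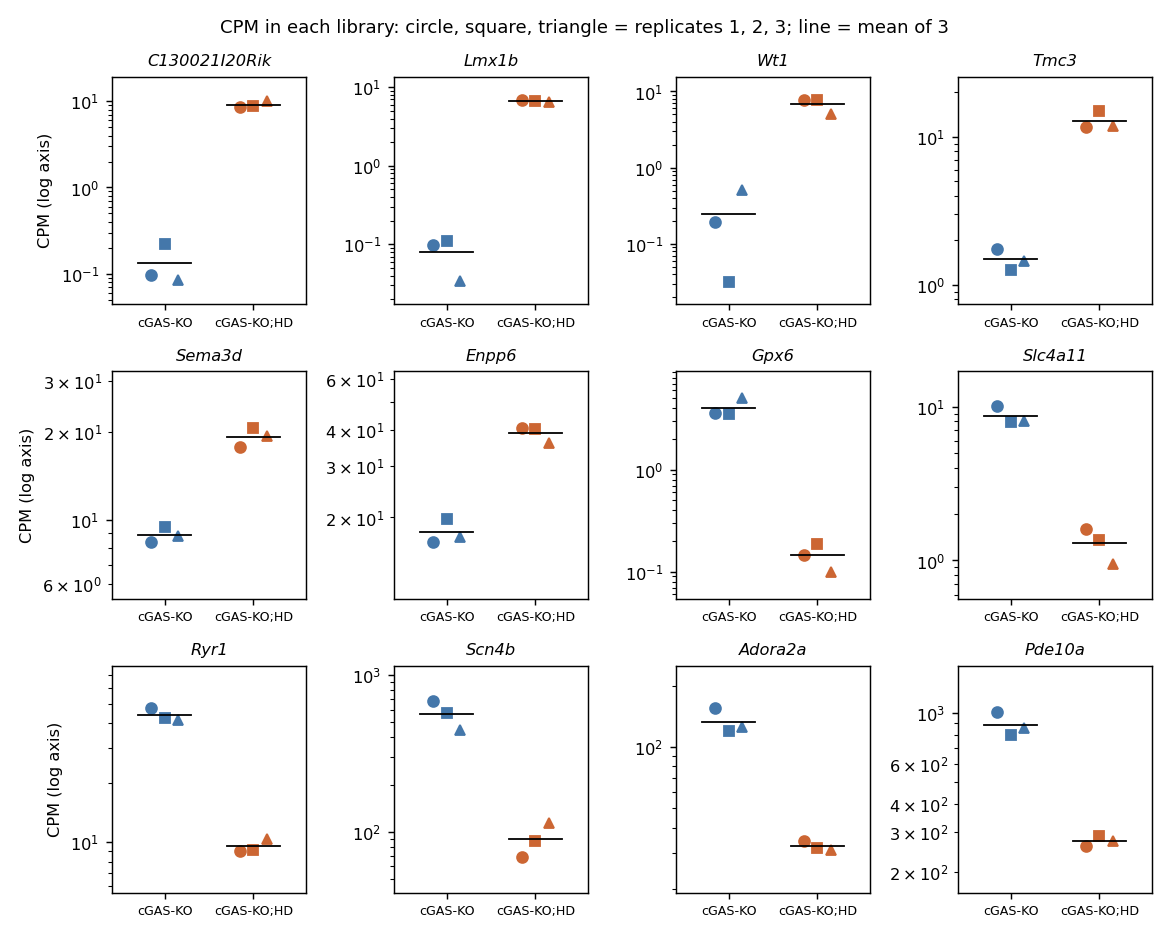
CPM on log axes in each of the 6 libraries for 12 genes; circles, squares and triangles are replicates 1, 2 and 3 and the line is the mean of 3. In every panel the 3 cGAS-KO values and the 3 double-mutant values do not overlap, which was a condition for genes picked as the largest changes. In cGAS-KO replicate 3 the value is the highest of its group for Wt1 and Gpx6 and the lowest for C130021I20Rik, Lmx1b, Ryr1 and Scn4b.

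Some of the largest falls were in genes of low abundance that are not classical striatal markers. Gpx6, of the glutathione peroxidase family, stood at 3.57, 3.52 and 5.05 CPM in cGAS-KO and 0.145, 0.189 and 0.0997 CPM in the double mutants. The log2 change was -4.78 ± 0.52 (adjusted p = 0.000367). Arhgef39, an exchange factor for small GTPases, had 3.05, 2.34 and 2.11 CPM and 0.261, 0.189 and 0.270 CPM (-3.37 ± 0.26, adjusted p = 3.74e-05). Slc4a11, a membrane transporter, measured 10.0, 7.96 and 8.04 CPM and 1.60, 1.36 and 0.954 CPM (-2.73 ± 0.19, adjusted p = 1.5e-05). Ptprv, a receptor-type tyrosine phosphatase, fell from 28.7, 23.2 and 20.4 CPM to 4.36, 4.37 and 4.48 CPM (-2.45 ± 0.17, adjusted p = 1.25e-05). For each of these genes every double-mutant library lay below every cGAS-KO library. For Gpx6, Arhgef39 and Slc4a11 this was a condition of being picked among the largest falls. Ptprv was picked by its p, and 859 of the 861 called genes showed no overlap. Dgat2l6, a relative of a triglyceride synthase (-3.04 ± 0.38), the antisense RNA gene Gm9754 (-2.84 ± 0.37) and Mafa, a transcription factor best known from insulin cells (-2.82 ± 0.23), had adjusted p of 0.000895, 0.00128 and 5.15e-05. All 7 genes stayed called with any library left out.

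Transcription factors of early development, normally off in striatal neurons, rose. Of 77 listed, 38 had enough counts to be tested and 39 did not. Of those 38, 15 rose and 0 fell, with a median of 1.14, or 0.96 without cGAS-KO replicate 3, where 16 rose. A gene of this list passes the filter mainly through the group in which it is on, so the median and count describe the tested members and not all 77. The number higher was 12 to 20 in the leave-one-out fits, and DESeq2's Wald test called 19 higher and 1 lower. The mean level of the tested members was 0.20, 0.28 and 0.21 (log2(CPM + 0.5)) in cGAS-KO and 1.25, 1.51 and 1.28 in the double mutants. The filter keeps mainly members that are on in the double mutants, so this gap is in part built in.

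Within this list 6 neighbouring genes of the Hoxc cluster on chromosome 15 rose (Hoxc4, Hoxc5, Hoxc6, Hoxc8, Hoxc9 and Hoxc10; GENCODE M21 coordinates on GRCm38 from chr15:102966796 to chr15:103036852). Hox genes set position along the trunk of the embryo and are not used in the forebrain. Hoxc8 (chr15:102990607-102994111) had 0 counts in all 3 cGAS-KO libraries and 3.56, 7.35 and 5.65 CPM in the double mutants, 1187 counts in all, or at least 363-fold higher when the cGAS-KO group is set to 3 counts in total (adjusted p = 0.00927, or 0.0761 with no low-count filter). Hoxc6 (0 against 748 counts) was at least 229-fold higher and Hoxc9 (0 against 299) at least 91.4-fold higher, with adjusted p of 0.000721 and 0.00285. Hoxc4 had 0, 0 and 0.0338 CPM in cGAS-KO and 9.18, 11.5 and 8.46 CPM in the double mutants. That is 2 against 2080 counts, a ratio of 954 (95% counting interval 264 to 7884; adjusted p = 0.000155). Hoxc5 had 3 against 1375 counts, a ratio of 421 (144 to 2042; adjusted p = 0.000338). Its annotation overlaps those of its neighbours and the labels give no counting rule, so the split of reads among Hoxc4, Hoxc5 and Hoxc6 is uncertain. The intervals cover counting error only. Double-mutant replicate 1 was the lowest of its group for Hoxc5, Hoxc6, Hoxc8, Hoxc9 and Hoxc10, but not for Hoxc4.

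The smallest p of any gene belonged to C130021I20Rik, a non-coding RNA annotated as antisense, at 0.0973, 0.223 and 0.0844 CPM in cGAS-KO and 8.58, 8.82 and 9.97 CPM in the double mutants. The log2 change was 6.05 ± 0.32 (adjusted p = 3.25e-06). Its start (chr2:33641193, plus strand) lies beside that of Lmx1b (chr2:33560965-33640511, minus strand), a LIM homeodomain factor of the dorsal limb and the midbrain, which rose from 0.0973, 0.111 and 0.0338 CPM to 6.88, 6.65 and 6.49 CPM (6.32 ± 0.46, adjusted p = 2.13e-05). The 2 genes run away from each other and do not overlap in this annotation. The stretch of 250 bases before the RefSeq start of Lmx1b (GRCm38.p6, chr2:33641099-33641348, minus strand) holds the annotated start of C130021I20Rik and is shown because a divergent pair of transcripts rose on its 2 sides. Capitals mark its 19 CpG sites, against a median of 14 over 16880 windows of tested genes and 17 over the 25 windows of the developmental list.
Lmx1b: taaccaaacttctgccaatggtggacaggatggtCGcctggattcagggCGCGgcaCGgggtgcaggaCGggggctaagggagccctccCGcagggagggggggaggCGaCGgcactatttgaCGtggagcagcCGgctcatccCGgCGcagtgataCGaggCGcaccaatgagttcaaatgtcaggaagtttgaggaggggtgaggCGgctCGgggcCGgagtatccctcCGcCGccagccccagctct

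Barx1, a homeobox gene of stomach and jaw, had 0 counts in cGAS-KO and 0.828, 1.66 and 0.840 CPM in the double mutants, at least 73.1-fold higher (adjusted p = 0.000488). Wt1, a zinc finger factor of kidney and gonad, measured 0.195, 0.0318 and 0.506 CPM in cGAS-KO and 7.81, 7.77 and 5.01 CPM in the double mutants (4.82 ± 0.61, adjusted p = 0.00135). Here cGAS-KO replicate 3 was the highest of its group, and without it the change was 5.90. Pax2, of kidney and hindbrain, had 0.0324, 0.191 and 0.0338 CPM and 2.48, 2.43 and 1.58 CPM (4.61 ± 0.53, adjusted p = 0.000488). Genes outside the list rose as well. Tmc3, a transmembrane channel-like protein, went from 1.75, 1.26 and 1.45 CPM to 11.6, 14.9 and 11.9 CPM (3.10 ± 0.19, adjusted p = 5.41e-06). Sema3d, a secreted axon guidance cue, went from 8.38, 9.44 and 8.78 CPM to 17.8, 20.7 and 19.4 CPM (1.12 ± 0.09, adjusted p = 5.15e-05). All genes named here, like the Hoxc genes, Lmx1b and C130021I20Rik, were called in mice with cGAS too.

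The Polycomb machinery itself had a median log2 change of 0.03, with single values from -1.29 to 0.78. Of 34 subunits and opposing enzymes 2 rose and 0 fell, beside 1.55% higher and 2.72% lower over all genes tested. Cbx8, a chromobox reader of Polycomb repressive complex 1, had 7.85, 8.53 and 5.03 CPM in cGAS-KO and 10.9, 11.7 and 14.1 CPM in the double mutants (0.78 ± 0.17, adjusted p = 0.0247), and was not called without cGAS-KO replicate 1 or any double-mutant library (0.0507 to 0.0949). With cGAS-KO replicate 3 left out, the scaffold gene Asxl3 was called higher and the deubiquitinase gene Bap1 lower (adjusted p = 0.0438 and 0.0249). Ezh2, the methyltransferase, was not called (-0.28 ± 0.11, adjusted p = 0.203). At an unadjusted p under 0.05, 3 members were higher and 3 lower. DESeq2's Wald test called 2 higher and 2 lower, and limma voom 4 higher and 6 lower.

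Of 19 clock genes 7 fell and 0 rose (median -0.25), and 7 fell without cGAS-KO replicate 3, of which Cry2 was new and Per1 was lost. Dbp, a PAR bZIP factor driven by the clock, had 111, 109 and 99.8 CPM in cGAS-KO and 65.6, 68.4 and 69.4 CPM in the double mutants (-0.65 ± 0.07, adjusted p = 0.000272). Ciart, a repressor within the clock loop, had 15.3, 16.9 and 15.7 CPM and 8.60, 9.74 and 9.88 CPM (-0.76 ± 0.10, adjusted p = 0.0014). Their values were tight in both groups and their calls held in every leave-one-out fit. Npas2, a partner of BMAL1, had 63.6, 54.9 and 94.8 CPM and 36.8, 36.0 and 30.5 CPM (-1.05 ± 0.21, adjusted p = 0.0158), and Hlf, another PAR bZIP factor, changed by -0.71 ± 0.14 (adjusted p = 0.012). Npas2 was not called without any of the double-mutant libraries (0.0567 to 0.0682), and Hlf not without double-mutant replicates 2 or 3 (0.065 and 0.0525). The count fell to 3, 2 and 2 without double-mutant replicates 1, 2 and 3 and was 6 or 7 without any cGAS-KO library. The labels do not give the time of day at collection.

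The 250 bases before the RefSeq start of Ciart (GRCm38.p6, chr3:95882229-95882478, minus strand) are shown because this strand holds CACGTG, the E-box that the clock factors bind, 3 times (in capitals). CACGTG, which reads the same on both strands, was present in 26.1% of 23 windows of the clock list in 7.59% of 16880 windows of tested genes and in 7.54% of 491 windows of genes called lower.
Ciart: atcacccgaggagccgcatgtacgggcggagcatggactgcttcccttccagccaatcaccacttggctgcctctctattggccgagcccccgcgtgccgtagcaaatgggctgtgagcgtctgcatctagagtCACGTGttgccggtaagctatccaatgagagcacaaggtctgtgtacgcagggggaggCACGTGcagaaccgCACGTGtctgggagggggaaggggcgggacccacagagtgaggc

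Immediate early genes, which follow neuronal activity, were lower in every case but rarely called. All 23 had negative log2 changes (median -0.78), and 1 was called, the clock gene Per1, also on this list. Per1 had 105, 109 and 145 CPM in cGAS-KO and 65.2, 75.3 and 73.1 CPM in the double mutants (-0.75 ± 0.17, adjusted p = 0.026). Per1 lost its call without cGAS-KO replicate 3 or any double-mutant library (0.0692 to 0.115), and without cGAS-KO replicate 3 no member was called and the median was -0.53. At an unadjusted p under 0.05, 8 of the 23 were lower, and DESeq2's Wald test and limma voom called 5 and 4. The level of the list was 4.89, 4.93 and 5.55 in cGAS-KO and 4.05, 4.62 and 4.55 in the double mutants, highest in cGAS-KO replicate 3.

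Part of the interferon-stimulated genes rose in the double mutants, and how many were called changed with every library left out. Of 55 listed genes 54 were tested, and 9 rose and 0 fell with all 6 libraries (median 0.58), against 26 and 0 without cGAS-KO replicate 3 (median 0.75). The count was 3 without cGAS-KO replicate 1, 5 without replicate 2, and 5, 3 and 4 without double-mutant replicates 1, 2 and 3. At an unadjusted p under 0.05, 26 of the 54 were higher and 0 lower with all libraries. DESeq2's Wald test called 19 higher and limma voom, which weights libraries by quality, 39 higher, both with 0 lower. With the Xist class as a covariate 7 were higher, and 11 when cGAS-KO replicate 3 was left out as well. The list's level was 1.63, 1.85 and 2.21 in cGAS-KO and 2.29, 2.48 and 2.33 in the double mutants, so that cGAS-KO replicate 3 lay closer to the double mutants than to its own group.

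Among the 9 were sensors of foreign RNA and their partners. Parp12, an antiviral ADP-ribosyltransferase, measured 11.9, 12.0 and 10.6 CPM in cGAS-KO and 17.0, 17.8 and 17.9 CPM in the double mutants (0.61 ± 0.09, adjusted p = 0.00187). Trim25, the ubiquitin ligase that acts on RIG-I, had 6.27, 7.76 and 7.21 CPM and 11.9, 11.9 and 11.5 CPM (0.73 ± 0.12, adjusted p = 0.00585). Eif2ak2, the RNA-dependent kinase PKR, had 9.69, 11.0 and 10.9 CPM and 17.9, 20.9 and 16.0 CPM (0.79 ± 0.14, adjusted p = 0.00702). For these 3 genes cGAS-KO replicate 3 sat with its group, and the calls held with any library left out. Ifit2, which binds viral RNA, was at 13.6, 16.9 and 12.6 CPM and 20.7, 22.3 and 21.2 CPM (0.57 ± 0.12, adjusted p = 0.0205), with the call lost without cGAS-KO replicate 1 or any double-mutant library (0.0596 to 0.0869). Ddx58 (RIG-I), Ifit3, Ifi35 and the GTPase Igtp, named after their values were seen, rose as well, with log2 changes from 0.61 to 1.00. Ifi35 was not called without cGAS-KO replicate 3 (adjusted p = 0.0545). Ifit3 has a near-identical neighbour, Ifit3b, so the split of reads between the 2 is uncertain.

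Another 18 interferon genes were called without cGAS-KO replicate 3 but not with all 6 libraries. Isg15, a ubiquitin-like modifier, measured 0.373, 0.398 and 0.895 CPM in cGAS-KO and 0.654, 1.16 and 1.71 CPM in the double mutants (1.08, adjusted p = 0.139), and its change was 1.60 without replicate 3 (adjusted p = 0.0248). Irf7, the factor that amplifies interferon output, had 0.892, 1.26 and 1.79 CPM and 2.61, 4.10 and 2.31 CPM (1.20, adjusted p = 0.0553; 1.48 and 0.0235 without replicate 3). For Zbp1, Ccl5 and Oas2 the value in cGAS-KO replicate 3 was as high as in the double mutants: Ccl5, a chemokine, had 0.113, 0.0318 and 0.608 CPM and 0.349, 0.458 and 0.427 CPM. Cxcl10, another chemokine, had 1.96 CPM in cGAS-KO replicate 3 against 0.405 and 0.270 in its group mates, and its change was -0.43 with and 0.93 without that library, called in neither setting. 

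The interferon-stimulated response element is found in some promoters of interferon genes. The motif searched was GAAA, any 2 bases, GAAA, on both strands, in the 250 bases before each RefSeq start. It was found in 31.9% of 47 windows of the interferon list, so most of them lacked it. The share was 4.89% of 307 windows of genes called higher and 2.58% of 16880 windows of tested genes. Whether the motif has a part in the rise was not tested. A pair of windows is shown with its matches in capitals, Igtp (GRCm38.p6, chr11:58199306-58199555, plus strand), called with all 6 libraries, and Isg15 (chr4:156200819-156201068, minus strand), called without cGAS-KO replicate 3 but not with it. Igtp holds 1 match, and Isg15 holds 3 that overlap.
Igtp: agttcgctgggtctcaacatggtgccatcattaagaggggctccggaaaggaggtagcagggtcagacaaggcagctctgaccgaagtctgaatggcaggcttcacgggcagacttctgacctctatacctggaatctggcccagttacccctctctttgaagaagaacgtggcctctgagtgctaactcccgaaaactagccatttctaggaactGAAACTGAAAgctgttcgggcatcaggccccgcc
Isg15: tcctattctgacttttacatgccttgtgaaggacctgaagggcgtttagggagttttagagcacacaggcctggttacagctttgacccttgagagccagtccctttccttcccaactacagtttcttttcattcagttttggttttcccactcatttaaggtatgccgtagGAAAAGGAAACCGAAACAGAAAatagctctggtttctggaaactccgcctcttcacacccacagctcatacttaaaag

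**Figure D3:**
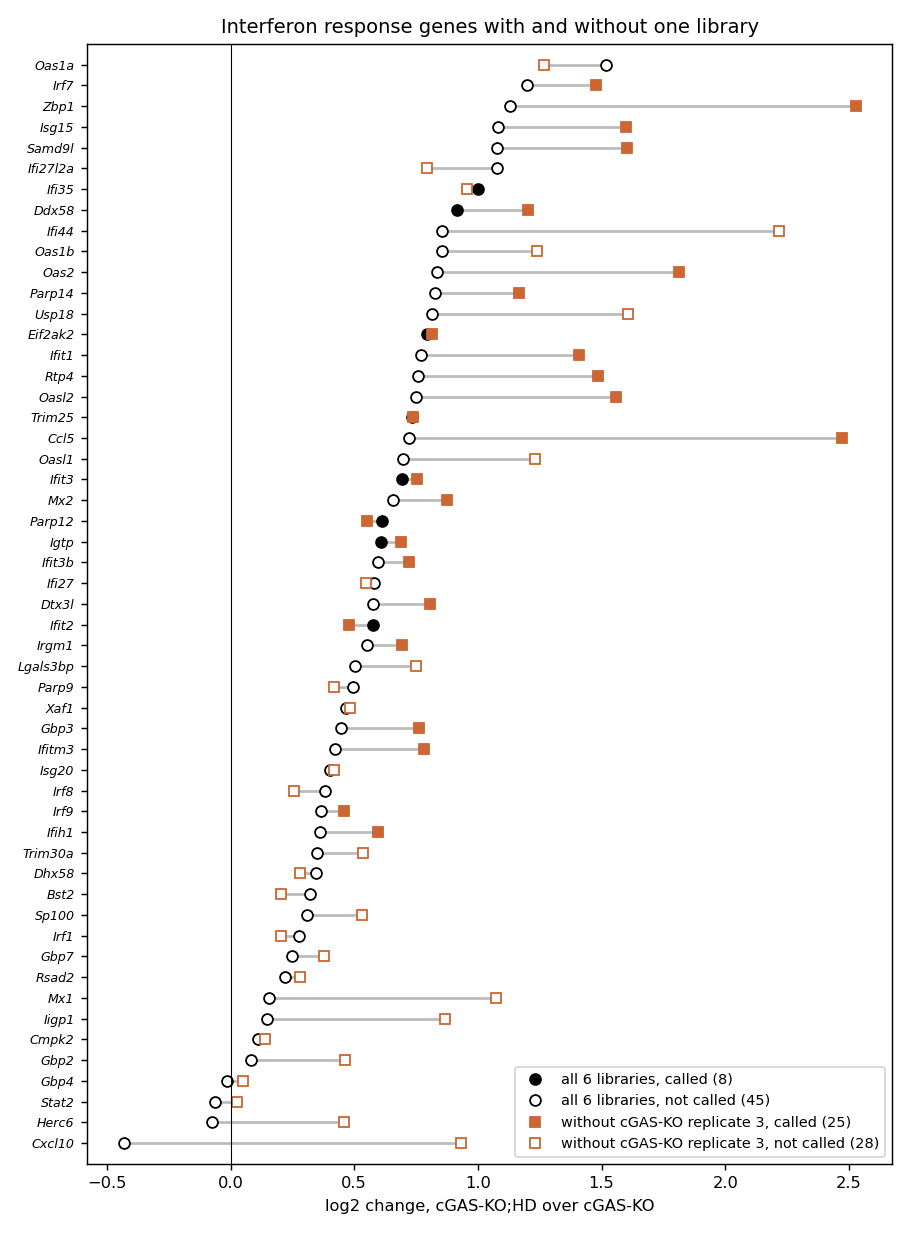
Log2 change (double mutants over cGAS-KO) of 53 of the 54 tested interferon genes, as circles with all 6 libraries and as squares without cGAS-KO replicate 3; filled symbols passed an adjusted p under 0.05. The 25 filled squares against 8 filled circles show the change in the count without that library, and nearly all symbols of both kinds lie to the right of 0.

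On the signalling route from cGAS to interferon, 2 of 26 tested genes rose and 0 fell (median 0.13). Over all genes tested 1.55% were called higher and 2.72% lower. At an unadjusted p under 0.05, 7 of the 26 were higher and 0 lower. DESeq2's Wald test called 2 higher and limma voom 6, both with 0 lower. Trim56, a ubiquitin ligase linked to cGAS and STING, had 11.8, 11.5 and 7.97 CPM in cGAS-KO and 17.3, 18.7 and 18.6 CPM in the double mutants (0.80 ± 0.14, adjusted p = 0.00695). Enpp1, which breaks down extracellular cGAMP, had 11.7, 10.3 and 10.7 CPM and 15.5, 17.2 and 15.5 CPM (0.56 ± 0.12, adjusted p = 0.0251). Enpp1 was called only with all libraries or without cGAS-KO replicate 3 (0.0559 to 0.112 without any other). STING itself (Tmem173; 0.10 ± 0.21), Tbk1 (-0.08 ± 0.06) and Irf3 (0.24 ± 0.12) were not called, with adjusted p of 0.877, 0.561 and 0.327. In antigen presentation 1 of 21 genes rose, the proteasome activator Psme1 (0.34 ± 0.07, adjusted p = 0.0191), and it was not called without cGAS-KO replicate 1 or double-mutant replicates 1 or 2 (0.0601 to 0.0886). Without cGAS-KO replicate 3, 4 rose, the new ones being B2m, Nlrc5 and H2-Ab1, but 0 once the Xist class was also a covariate. B2m, the light chain of MHC class I, stood at 76.0, 73.2 and 211 CPM in cGAS-KO and 169, 149.9 and 118 CPM in the double mutants, with the single highest value in cGAS-KO replicate 3.

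Microglial markers were not called with all libraries, 0 of 23 in either direction (median 0.23, 5 higher and 0 lower at an unadjusted p under 0.05). Their summed level was 767.4, 742.1 and 833.2 CPM in cGAS-KO and 853.4, 922.3 and 883.6 CPM in the double mutants. Sall1, which keeps microglial identity, had 35.0, 37.6 and 43.1 CPM and 50.2, 51.5 and 43.1 CPM (0.32 ± 0.09, adjusted p = 0.0706), and with Selplg and Laptm5 it was called without cGAS-KO replicate 3, where 2 members were higher with the Xist class as a covariate. DESeq2's Wald test called 2 microglial genes higher and limma voom 11, where they called 658 and 1686 of all 20178 genes higher. With edgeR 1.55% of all genes tested were called higher and 2.72% lower. In the list of activated microglia and complement 1 of 24 was called, Lpl, a lipoprotein lipase, which fell (-0.74 ± 0.18, adjusted p = 0.0344), though not without cGAS-KO replicates 1 or 3 or any double-mutant library (0.0882 to 0.122). These summed levels move in the same direction as the interferon list, and their part in that result was not tested.

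Of 23 astrocyte markers 1 rose and 2 fell, beside 1.55% higher and 2.72% lower over all genes tested. The count lower was 3 without cGAS-KO replicate 3 and 0 without double-mutant replicates 2 or 3. S100b, a calcium-binding protein, had 130.5, 155 and 123 CPM in cGAS-KO and 248.8, 221 and 228 CPM in the double mutants (0.77 ± 0.13, adjusted p = 0.0052). The glutamate transporter Slc1a2 had 2110.5, 1959 and 2648 CPM and 1570.5, 1468 and 1479 CPM (-0.57 ± 0.12, adjusted p = 0.0159). Glutamine synthetase, Glul, fell by less (-0.41 ± 0.10, adjusted p = 0.0353). S100b held in every leave-one-out fit. Slc1a2 did not without any double-mutant library (0.0527 to 0.0769), nor Glul without cGAS-KO replicate 1 or double-mutant replicates 2 or 3 (0.0565 to 0.157). Of 21 reactive astrocyte genes 2 rose and 0 fell. Ceruloplasmin, Cp, had 10.9, 11.2 and 12.4 CPM and 21.0, 24.1 and 19.2 CPM (0.90 ± 0.12, adjusted p = 0.00164). The intermediate filament gene Vim (0.86 ± 0.19, adjusted p = 0.0272) lost its call without any single library (0.0537 to 0.106). Gfap was not called (0.47 ± 0.26, adjusted p = 0.396).

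Of 12 markers of newly formed oligodendrocytes 4 rose and 0 fell (median 0.42). Whether this stage differed from the others was not tested. Enpp6, a choline phosphodiesterase that marks this stage, had 16.5, 19.8 and 17.2 CPM in cGAS-KO and 40.7, 40.4 and 36.2 CPM in the double mutants (1.13 ± 0.10, adjusted p = 5.34e-05). Bmp4, a signal that restrains their maturation, had 0.973, 1.37 and 1.45 CPM and 2.82, 3.47 and 2.73 CPM (1.25 ± 0.23, adjusted p = 0.00973; 0.0523 without double-mutant replicate 2). Nkx2-2, also on the developmental list, and the receptor Gpr17 rose by 0.80 ± 0.16 and 0.46 ± 0.10 (adjusted p = 0.0143 and 0.0272). Nkx2-2 was not called without cGAS-KO replicate 1 or double-mutant replicate 1 (0.0608 and 0.0724). Gpr17 was not called without cGAS-KO replicates 1 or 3 or double-mutant replicates 2 or 3 (0.0504 to 0.0943). The count was 2 without cGAS-KO replicate 1 or double-mutant replicate 2. DESeq2's Wald test called 6 of the 12 higher.

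Mature oligodendrocyte genes went both ways, 4 higher and 3 lower of 28, and this balance shifted to 1 and 7 without cGAS-KO replicate 3 and to 1 and 1 with the Xist class as a covariate. That library had the lowest summed level of the list, 10510 CPM against 12340 and 13250 in its group mates and 10860 to 11490 in the double mutants. Il33, an alarmin made by these cells, had 147, 143 and 154 CPM in cGAS-KO and 106, 101 and 90.1 CPM in the double mutants (-0.58 ± 0.08, adjusted p = 0.0016). Anln, a septin-binding protein of myelin, had 102, 102 and 89.6 CPM and 169, 139 and 139 CPM (0.60 ± 0.10, adjusted p = 0.00449). Both calls held in every leave-one-out fit. Outside the fit without cGAS-KO replicate 3, leaving out a library left 1 member lower and 1 to 4 higher. The gap junction gene Gjb1 (0.49 ± 0.11, adjusted p = 0.0284) and carbonic anhydrase Car2 (-0.45 ± 0.11, adjusted p = 0.0355) passed with all 6 libraries. Gjb1 kept its call only without cGAS-KO replicate 2 (0.0526 to 0.115 otherwise) and Car2 only without cGAS-KO replicate 3 (0.059 to 0.138 otherwise). Of 14 precursor markers 1 rose and 1 fell, where 1.55% of all genes tested were called higher and 2.72% lower. The factor Sox10 had 72.5, 82.6 and 73.3 CPM and 102, 104 and 100.03 CPM (0.42 ± 0.07, adjusted p = 0.00397), and Cacng4, a receptor subunit, changed by -0.52 ± 0.10 (adjusted p = 0.0116; 0.0643 without double-mutant replicate 2).

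Calls among markers of cells from other brain regions or of vessels and meninges stand beside 1.55% higher and 2.72% lower over all genes tested. Of 26 cortical projection neuron markers 1 fell, Rspo1 (-0.62 ± 0.13, adjusted p = 0.0218), called otherwise only without cGAS-KO replicate 3 (0.0578 to 0.0839 without another library). The list's median was -0.78 with all libraries and 0.002 without cGAS-KO replicate 3. Slc17a7, the cortical vesicular glutamate transporter, stood at 173, 86.8 and 618 CPM in cGAS-KO and 62.2, 157 and 91.8 CPM in the double mutants. Of 20 genes of thalamus, septum and pallidum 1 fell, Pcp4, a calmodulin-binding peptide also made by striatal cells, with 25.5, 27.4 and 36.7 CPM and 13.6, 12.2 and 13.6 CPM (-1.19 ± 0.16, adjusted p = 0.00135). No endothelial or mural (26), fibroblast (18), choroid plexus (18) or erythrocyte gene (7) was called by edgeR, while 6, 4, 0 and 1 of them had an unadjusted p under 0.05. DESeq2's Wald test called 4, 2, 0 and 0 of them and limma voom 5, 4, 0 and 0. Without cGAS-KO replicate 3 the endothelial genes Tie1, Cldn5, Esam and Egfl7 were called lower, but 0 endothelial genes once the Xist class was also a covariate.

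**Figure D4:**
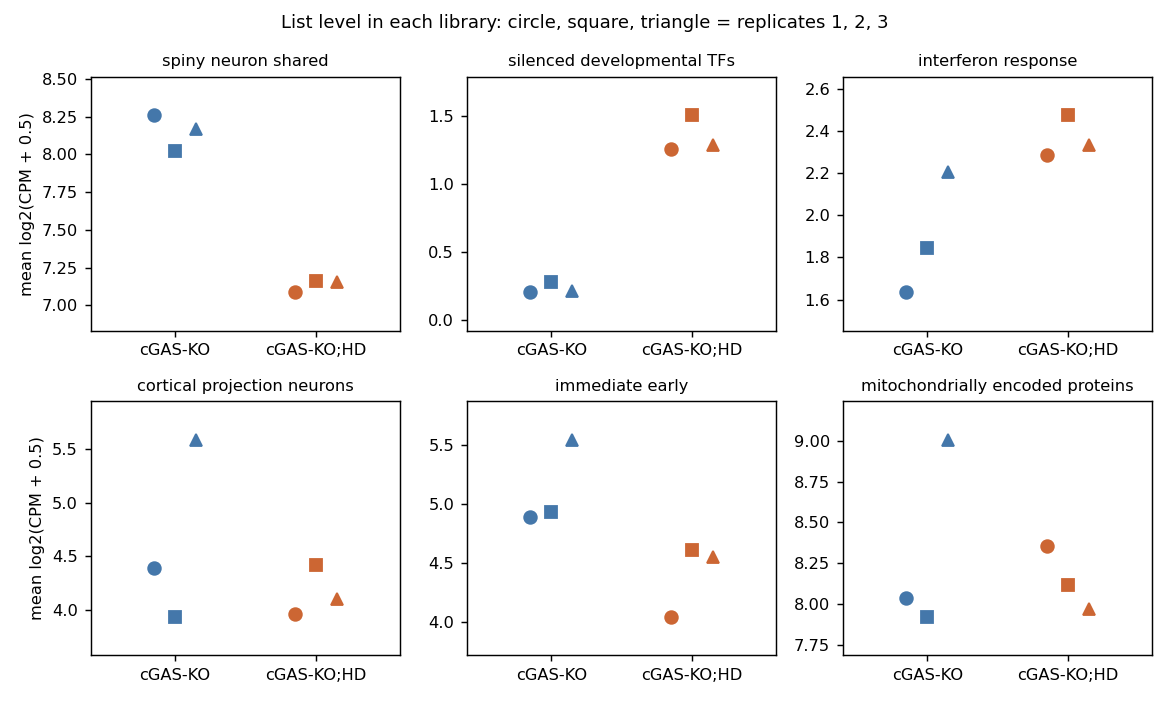
Level of 6 gene lists in each library, as the mean of log2(CPM + 0.5) over the tested members; circles, squares and triangles are replicates 1, 2 and 3. For spiny neuron and developmental genes cGAS-KO replicate 3 lies with its group mates (the gap of the developmental list is in part built in by the count filter), whereas for cortical, immediate early, mitochondrial and interferon genes that library lies above its group mates.

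Few genes of lipid metabolism were called. Cyp46a1, the neuronal cholesterol 24-hydroxylase, had 167, 160.2 and 171 CPM in cGAS-KO and 92.8, 103 and 110.3 CPM in the double mutants (-0.70 ± 0.08, adjusted p = 0.000374), 1 of 35 cholesterol genes that edgeR called lower, where DESeq2's Wald test called 5 and limma voom 9. Npc1, which exports cholesterol from lysosomes, rose by 0.33 ± 0.07 (adjusted p = 0.0203). Without cGAS-KO replicate 3 edgeR called 2 cholesterol genes lower and 1 higher. Of 70 genes of fatty acids, phospholipids and sphingolipids 2 rose and 4 fell, near the 1.55% and 2.72% over all genes tested. Pla2g4a, a phospholipase that frees arachidonic acid, had 4.02, 4.65 and 3.38 CPM and 9.31, 8.60 and 8.51 CPM (1.13 ± 0.14, adjusted p = 0.00103). Smpd3, a neutral sphingomyelinase, had 147, 131 and 139.6 CPM and 74.0, 85.4 and 88.0 CPM (-0.76 ± 0.15, adjusted p = 0.0147). The desaturase Fads1 (-0.32 ± 0.07) and the triglyceride synthase Dgat2 (-0.60 ± 0.13) had adjusted p of 0.022 and 0.0233. Cyp46a1 and Pla2g4a held in every leave-one-out fit. Npc1, Smpd3, Fads1 and Dgat2 were not called without cGAS-KO replicate 1 or double-mutant replicates 1 or 2 (0.0521 to 0.118). In those 3 settings 0 of the 70 genes were lower, against 5 without cGAS-KO replicates 2 or 3 and 3 without double-mutant replicate 3.

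Neither part of the respiratory chain was called. For the 13 mitochondrially encoded proteins the median was -0.28 with all libraries and 0.26 without cGAS-KO replicate 3, so the direction turned with that library. Their summed level was 49140, 45930 and 109200 CPM in cGAS-KO and 73420, 56570 and 48300 CPM in the double mutants. At an unadjusted p under 0.05, 1 of the 13 was lower, and DESeq2 called 0 and limma voom 1. Of 40 nuclear genes 3 were lower at an unadjusted p under 0.05, and Ndufs4 and Ndufs3 of complex I were called lower without cGAS-KO replicate 3, but 0 genes once the Xist class was also a covariate. DESeq2 called 1 of the 40 lower, and limma voom 5 lower and 1 higher. No chaperone gene of 32 was called (4 higher and 2 lower at an unadjusted p under 0.05; 1 higher by DESeq2, 4 higher and 1 lower by limma voom), and without cGAS-KO replicate 3 Stip1, Hspa8 and Cryab were called higher. With the Xist class as a covariate in that setting, 1 chaperone gene was higher and 1 lower.

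Of 29 p53 and senescence genes 2 rose and 1 fell, beside 1.55% higher and 2.72% lower over all genes tested. Cdkn2a, which encodes the cell cycle inhibitors p16 and p19, had 0.178, 0.159 and 0.118 CPM in cGAS-KO and 0.712, 0.742 and 0.854 CPM in the double mutants (2.32 ± 0.42, adjusted p = 0.0084), called in every leave-one-out fit. Eda2r, a death receptor induced by p53, had 1.09, 0.907 and 0.658 CPM and 1.70, 1.83 and 1.69 CPM (0.98 ± 0.22, adjusted p = 0.0276), but only the fit without cGAS-KO replicate 1 also called it (0.0563 to 0.103 without another library). Zmat3, a p53 target, fell by 0.30 on the log2 scale (adjusted p = 0.0363), called otherwise only without cGAS-KO replicates 2 or 3 (0.0648 to 0.159 without another library). Among 24 huntingtin partners and repeat modifiers, 3 fell and 0 rose. Apart from Htt these were Rasd2, which encodes the striatal GTPase Rhes, and Sgk1, a kinase that phosphorylates huntingtin. Without cGAS-KO replicate 3, 3 members fell and 1 rose. Rasd2 had 352, 307 and 326 CPM and 125, 137 and 148 CPM (-1.26 ± 0.16, adjusted p = 0.00106). Sgk1 (-0.52 ± 0.12, adjusted p = 0.0349) was called otherwise only without cGAS-KO replicate 3 (0.0548 to 0.131 without another library).

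**Figure D5:**
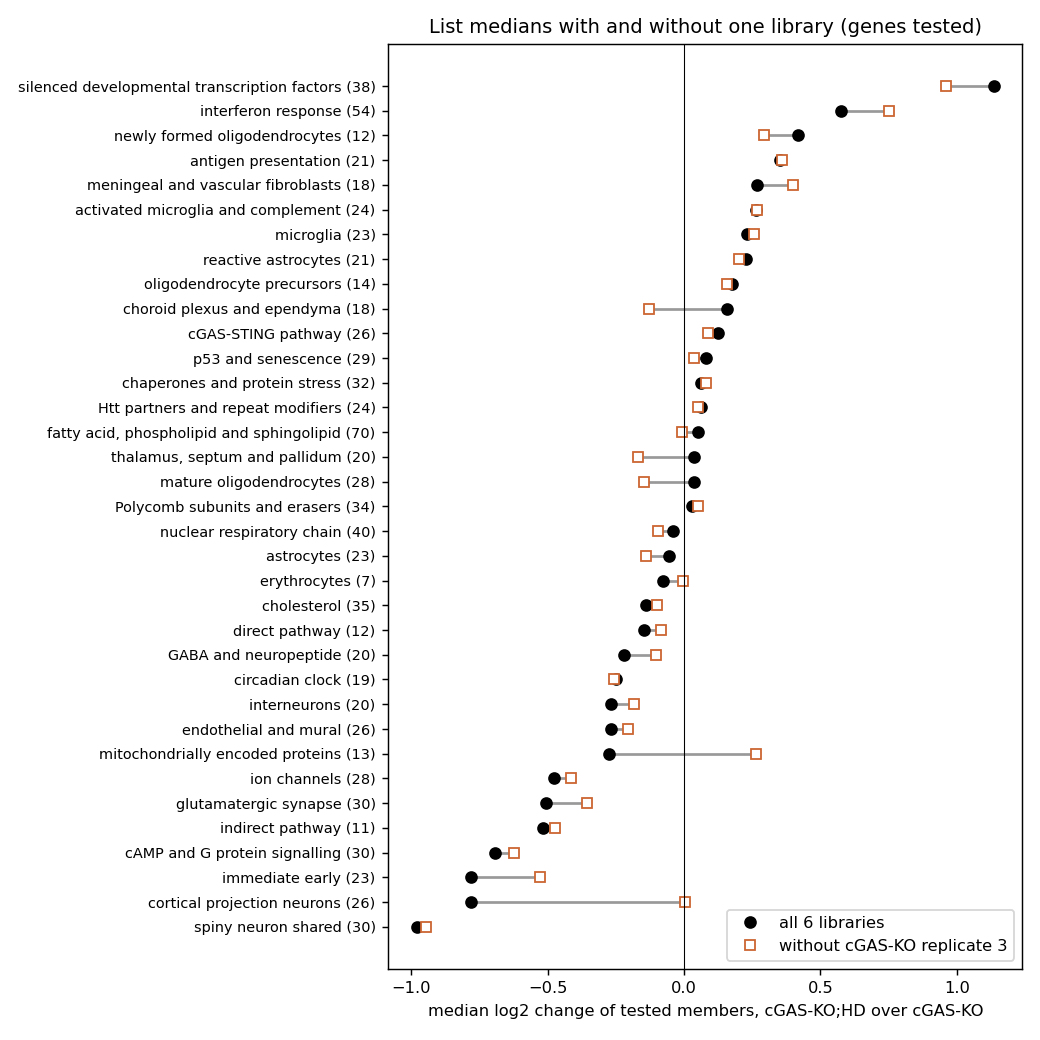
Median log2 change (double mutants over cGAS-KO) of the tested members of 35 gene lists, with their number in brackets, as black circles with all 6 libraries and open squares without cGAS-KO replicate 3. The spiny neuron list stays near -0.98 in both, the cortical list moves from -0.78 to 0.002 and the mitochondrial, choroid plexus, thalamic, lipid and mature oligodendrocyte lists cross 0.

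Abi3bp, Igkc and Gm10221 were among the 6 genes whose change moved most when cGAS-KO replicate 3 was left out. Abi3bp, an extracellular matrix protein, had 21.9, 15.6 and 70.3 CPM in cGAS-KO and 4.91, 7.40 and 3.97 CPM in the double mutants. It was called with that library (-2.73 ± 0.55, adjusted p = 0.0233) and without it (-1.79, adjusted p = 0.0191), but not without any double-mutant library (0.0579 to 0.104). Igkc, the constant region of antibody kappa chains, had 0.113, 0.446 and 1.22 CPM and 1.13, 7.38 and 8.74 CPM (3.28 ± 0.80, adjusted p = 0.0439). Its 2 highest values were in the high-Xist double mutants, and the call was lost without cGAS-KO replicates 1 or 2 or double-mutant replicates 2 or 3 (0.114 to 0.125). Gm10221, a processed pseudogene, had 0.389, 0.366 and 3.01 CPM and 1.64, 0.863 and 1.02 CPM, with a change of -0.09 (adjusted p = 0.969) that became 1.63 without cGAS-KO replicate 3 (adjusted p = 0.0441).

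The same allele was measured in mice with cGAS from separate libraries. There HD against WT called 898 of the 20178 genes (4.45%), 312 higher (1.55%) and 586 lower (2.9%). The comparisons shared 516 called genes, all with the same sign, which is 59.9% of those called without cGAS and 57.5% of those called with it. Of the 861 genes called without cGAS, 846 had the same sign with cGAS. In Lmx1b the log2 change was 6.32 without cGAS and 5.36 with it, in Ryr1 -2.21 and -2.26, in Adora2a -2.04 and -1.94, and in Enpp6 1.13 and 1.23. Some genes called without cGAS were not called with it, such as Cdkn2a (2.32 against 0.75, adjusted p = 0.338 with cGAS), Pcp4 (-1.19 against -0.52, adjusted p = 0.0858) and Cacna2d3 (-0.74 against -0.43, adjusted p = 0.0508). The interferon list had 9 members higher without cGAS and 5 with it, 0 lower in either. None of these differences passed the test of the difference itself (adjusted p = 1 for each gene named here).

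That test, the interaction term of the fit, called 1 of 20178 genes (0.00496%), 582 had an unadjusted p under 0.05, and without cGAS-KO replicate 3 the numbers were 1 and 2233. DESeq2's Wald test called 3 and limma voom 43. The called gene was Mid1-ps1, a pseudogene on the Y chromosome in GRCm38 (chrY:90753057-90763485), at 0.584, 0.334 and 0.557 CPM in cGAS-KO and 0.842, 0.742 and 1.08 CPM in the double mutants. With cGAS it had 0.492, 0.395 and 0.371 CPM in WT and 6.97, 5.51 and 6.86 CPM in HD. Its knock-in change was 0.85 ± 0.25 without cGAS (adjusted p = 0.0749) and 3.94 ± 0.25 with it, a difference of -3.08 ± 0.35 (adjusted p = 0.0181). It had counts in libraries both high and low in Xist, and reads from the related X-linked gene Mid1 may be shared with it. HD replicates 1 and 2, at 6.97 and 5.51 CPM, had 88415 and 78624 Xist counts. They held only 2 and 1 counts of the Y-linked gene Ddx3y. The Mid1-ps1 reads of these 2 libraries can therefore not be placed on the Y chromosome, and their source was not tested. The call of the difference was lost without WT replicates 2 or 3, HD replicates 1 or 3, cGAS-KO replicate 1 or double-mutant replicates 1 or 2 (adjusted p = 0.0971 to 0.123).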

How the data were processed

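Per the labels' protocols, poly(A) RNA of striatum from 3 mice per group was made into directional libraries, and the authors deposited whole-number counts per Ensembl gene. No label or file header names the aligner, genome build or counting rule. Symbols and coordinates came from GENCODE M21 (GRCm38), promoters from RefSeq (GRCm38.p6), up to 250 bases before each start. Genes with at least 10 counts in 3 of the 6 compared libraries were tested with edgeR 4.0.16 (R 4.3.3; TMM scaling, robust quasi-likelihood test, 1 mean per group over 12 libraries, 8 residual degrees of freedom, biological coefficient of variation 17.7%). P-values were Benjamini-Hochberg adjusted over 20178 genes and called under 0.05. The interaction is the knock-in effect without cGAS minus that with it. DESeq2 1.42.0, limma 3.58.1, other filters and scalings, a replicate block, an Xist class and leaving out each library were alternatives. Deviations of same-numbered libraries of the 2 groups were not positively correlated, and numbers were not treated as pairs. The method was tested on simulated counts.

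The members and gene lists were chosen with earlier results of these data known. Named genes are Htt and Cgas, the 8 largest changes each way of at least 1 CPM that kept their direction and call without cGAS-KO replicate 3, the 5 smallest p each way, up to 4 called genes per list by p, the 6 genes most moved by cGAS-KO replicate 3, and genes called in the interaction. The 8 largest changes each way also had to show no overlap between the library values of the groups. Other genes were named after their values were seen. Some genes counted in the lists are not reported here by name.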

Additional observations from a re-analysis of the deposited data

Results flagged for a closer look

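The difference between the knock-in effects of Mid1-ps1 was picked out because the interaction test passed for it (log2 -3.08 ± 0.35; edgeR's quasi-likelihood test, adjusted p = 0.0181). The 3 HD libraries had 6.97, 5.51 and 6.86 CPM, above all 9 others (0.334 to 1.08 CPM). Without cGAS-KO replicate 3 the difference was -2.98 (adjusted p = 0.0389), and over the fits without 1 of the 12 libraries its adjusted p ran from 0.0055 to 0.123.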

How the results depend on the processing

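With edgeR, other scalings and low-count filters gave 772 to 892 calls against 861. At an adjusted p under 0.01 there were 285 calls (95 higher, 190 lower). The DESeq2 Wald test gave 1676 (658 higher, 1018 lower) and limma voom with quality weights 3422 (1686 higher, 1736 lower), and these sets held 861 and 858 of the 861 genes with the same sign. With only the 6 compared libraries in the fit there were 456 calls (117 higher, 339 lower), and 1456 (548 higher, 908 lower) when cGAS-KO replicate 3 was also left out. The class of high or low Xist as a covariate gave 674 calls, and 528 (203 higher, 325 lower) together with leaving out that library. Leaving out 1 library gave 328 to 1155 calls, 114 to 472 higher and 214 to 683 lower. The cause of these shifts was not tested.

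The fit with a replicate block made 607 calls, of which 581 were among the 861. Deviations of same-numbered libraries correlated at -0.00498, -0.147 and -0.108. With 3 libraries per group these values cannot show whether same-numbered libraries share a litter or a batch.

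The interaction called 0 genes with a filter of 1 CPM, 3 with DESeq2, 43 with limma voom and 0 with the Xist class and without cGAS-KO replicate 3. It called 0 to 1 without 1 library.

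Alternatives gave 1761 values for 98 results, which are named genes and the Mid1-ps1 difference between the knock-in effects. Of these values 1516 kept their direction and call, 215 lost the call, 23 gained one and 7 turned, all of them Gm10221. Its change was 1.21 with limma voom, 1.63 in the 6 libraries without cGAS-KO replicate 3, 0.31 with the replicate block and 2.08 with the Xist class and without that library. Without 1 library it ran from -0.53 to 1.63. Of 86 named genes called, 52 kept the call without any 1 of the 6 libraries. Depth limits the genes under about 1 CPM, where a few counts set the value.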
